A study of Zea mays with 7 samples.

Results

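The isolated husk-only regions were short stretches of maize chromatin that carried listed H3K9 acetylation in husk leaves and lay far from any region listed in seedling stem. They were chosen by their position and size. A husk region was taken when it was at most 2000 bp long, shared 0 bp with any region of the seedling list and lay more than 100 kb, edge to edge, from the nearest one. Of 28004 husk regions, 11952 (42.7%) had no overlap with the seedling list, 10160 of these were at most 2000 bp long, and 1946 also met the distance. The 1946 isolated regions were thus 6.95% of the husk list and 16.3% of all husk-only regions, and together they covered 1877397 bp.

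All chromatin came from the inbred line B73, the source of the maize reference genome, grown in a greenhouse without any further treatment. The seedling tissue, V2-IST, was the inner stem of seedlings at the V2 stage after the outer leaves with their sheaths and the exposed blades had been cut away. The husk tissue was the soft inner leaves that wrap the ear, taken when silks emerged and before pollination, after the ear and the lignified outermost husk layers had been removed. The mark was mapped by ChIP-seq in 3 husk and 2 V2-IST replicates, and 1 input sample is labelled per tissue. Each tissue is a mixture of cell types, so fewer acetylated cells and less acetylation per cell cannot be told apart, and tissue and plant age changed together between the lists.

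H3K9ac is the acetylation of a lysine on the tail of histone H3. It is found on nucleosomes beside active promoters and active enhancers, and it is removed by histone deacetylases when these are silenced. Enhancers are DNA elements that raise transcription of a gene from a distance. In maize, whose genes are separated by long blocks of transposable elements, some known enhancers act over long distances, and an acetylated region far from other acetylated regions can be an enhancer, the promoter of a lone gene or a transcribed transposable element. Gene positions of the same genome build were used here at a single locus only. The isolated regions were therefore not sorted into these kinds.

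One isolated region lies at a well-known distal enhancer. It is the enhancer of teosinte branched1 (tb1, gene model Zm00001d033673), which encodes a TCP transcription factor that represses the outgrowth of side branches and was selected during domestication. The identity of both places was taken from the study's own tables of positions on the same build. The region at the enhancer spanned chr1:270483214-270484557 (AGPv4). The study designed 3 primer pairs for ChIP-qPCR around it, named P for the summit of the peak, S for its slope and O for sequence outside it. These designed sequences, from the study's primer list, are shown 5′ to 3′ because they were made to measure acetylation at and around this region, and nothing in them is capitalised. Their positions were not mapped here because no genome of this build was used.
tb1 P forward: tccacagtccacacacacac
tb1 P reverse: gaaagggtgaagccggagaa
tb1 S forward: tttagtccaggctgccatcg
tb1 S reverse: ataaagctttgtgtgccgcg
tb1 O forward: ctaacgggcccagttaagca
tb1 O reverse: tcggaccgtggagaaaactg

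The lists limit what these regions can show. A region is listed only when it was called in every replicate of its tissue, and the files give its chromosome, start and end but no signal, score or replicate. The lists give no sequencing depth, and the read totals of the libraries were not used here. The husk list held 28004 regions from 3 replicates and the V2-IST list 17170 from 2, a ratio of 1.63. Absence from the V2-IST list therefore does not measure absence of acetylation in V2-IST, at tb1 or anywhere else. Below and in the figures, a distance from V2-IST acetylation is a distance from the nearest region of the V2-IST list. No spread between replicates can be computed, so the values below are descriptions, with 95% intervals that cover counting over regions only. Neighbouring regions can belong to 1 locus and are not replicates.

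The isolated regions were compact and had almost the same lengths as husk-only regions that lay nearer to a listed V2-IST region. Their lengths ran from 253 to 2000 bp, with a median of 868 bp (95% interval 845 to 898) and quartiles of 623 and 1260 bp. The 8214 nearer husk-only regions of at most 2000 bp had a median of 887 bp (873 to 900), with quartiles of 636 and 1275 bp, and the intervals of the medians overlapped. Husk regions of at most 2000 bp that were shared with V2-IST had a median of 940 bp (933 to 947, n = 13759), above both husk-only intervals. The limit of 2000 bp and the lack of overlap were both part of the choice. A longer region has more room to overlap a V2-IST region. The difference in length between husk-only and shared regions can thus follow in part from the choice.

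The shortest regions were far more frequent in both husk-only classes than among shared regions. Under 500 bp were 10.8% of the isolated regions and 10.2% of the nearer husk-only regions, but 1.42% of the shared regions. Over the whole husk list, which includes regions over 2000 bp, 4.45% were under 500 bp (1245 of 28004). Among isolated regions, 48.6% were at least 500 but under 1000 bp long, 26.4% at least 1000 but under 1500 bp and 14.1% at least 1500 bp. Short lengths were thus found in husk-only regions on both sides of the distance limit. Sorting the regions by overlap can set part of the contrast with shared regions.

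**Figure D1:**
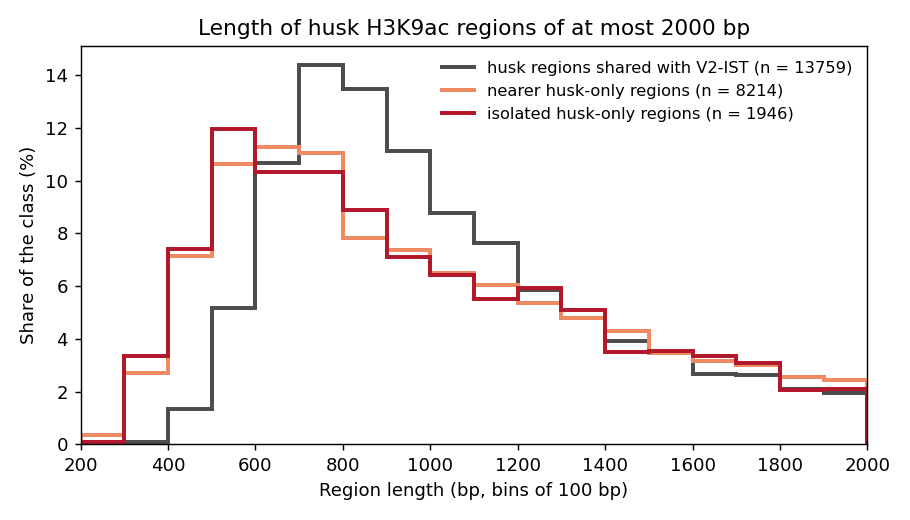
Lengths of husk H3K9ac regions of at most 2000 bp in bins of 100 bp (x axis), as a share of each class in percent (y axis), for isolated husk-only, nearer husk-only and shared regions. The red and orange outlines nearly coincide and both hold 10.8% and 10.2% of their regions below 500 bp, where the grey outline of the shared regions holds 1.42%.

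The extremes show the range of forms. The shortest isolated region, chr2:60047157-60047409, was 253 bp long. It lay 148.0 kb from V2-IST acetylation and 61.4 kb from the next husk region. The next shortest were 281 bp on chromosome 5, 302 and 303 bp on chromosome 6 and 315 bp on chromosome 2. The longest, chr3:99203468-99205467, was exactly 2000 bp long and lay 138.2 kb from V2-IST acetylation. Among the 5 longest, 2 were on chromosome 3 and 3 on chromosome 8, and they ran from 1989 to 2000 bp.

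Most isolated regions lay not far beyond the chosen limit, and a small tail lay much farther. This distance chose the regions and is given only as a description. The median gap to the nearest V2-IST region was 152.1 kb (148.8 to 156.3), with quartiles of 119.4 and 214.1 kb. Of the 1946 regions, 948 (48.7%) lay 100 to 150 kb away, 441 lay 150 to 200 kb away, 342 lay 200 to 300 kb away, 177 lay 300 to 500 kb away and 38 (1.95%) lay over 500 kb away. In the direction of the farther V2-IST neighbour, the median was 295.6 kb over the 1941 regions that had V2-IST regions on both sides. In 720 regions (37.1%) the farther side was more than 2 times as far as the nearer side. The nearer neighbour was on the low-coordinate side in 963 regions (49.5%), so neither direction along the chromosome was favoured.

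Median lengths were similar in the bins up to 500 kb and lower beyond. The median length was 883.5 bp at 100 to 150 kb, 844 bp at 150 to 200 kb, 885.5 bp at 200 to 300 kb and 858 bp at 300 to 500 kb. The 38 regions beyond 500 kb had a median of 732.5 bp. Their quartiles of 571.5 and 1108 bp were below those of every other bin, and the difference was not tested.

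The most remote isolated region was chr6:104451228-104452370, a region of 1143 bp that lay 951.8 kb from the nearest V2-IST region on one side and 1112 kb on the other. The next husk region of any kind was 360.3 kb away from it. The next 2 lay together on chromosome 4. These were chr4:110169998-110170595 (598 bp), 883.0 kb from V2-IST acetylation, and chr4:110150857-110151600 (744 bp), 863.8 kb from it, and 18.4 kb separated them. The fourth was chr4:99888716-99889291 (576 bp) at 765.1 kb, and the fifth was chr6:104074136-104075832 (1697 bp) at 735.4 kb.

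Every chromosome had isolated regions more than 400 kb away from any listed V2-IST region. The most remote one of each chromosome lay 514.8 kb away on chromosome 1, 649.6 kb on chromosome 2, 487.8 kb on chromosome 3, 704.3 kb on chromosome 5, 617.1 kb on chromosome 7, 500.5 kb on chromosome 8, 613.1 kb on chromosome 9 and 428.2 kb on chromosome 10. They differed in how alone they were. The one on chromosome 8, chr8:31656779-31657499 (721 bp), had no other husk region within 500.4 kb, whereas chr9:39079698-39081277 (1580 bp) had one 37.3 kb away.

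The limit itself did not cut through a gap in the distances. The 2 regions just inside it lay 100009 bp (chromosome 10, 566 bp long) and 100018 bp (chromosome 1, 595 bp long) from V2-IST acetylation, and the 2 just outside lay 99942 bp (chromosome 6, 1946 bp long) and 99794 bp (chromosome 3, 1570 bp long) away. Within 5 kb of the limit there were 134 isolated regions on the far side and 142 husk-only regions on the near side. At the length limit, 21 isolated regions were within 50 bp below it and 28 equally distant regions were up to 50 bp above it.

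From 1 kb outward, short husk-only regions became sparser with distance from V2-IST acetylation, though not steadily, and they were still present in the farthest bin. Of the sequence spanned by the lists, 545.1 Mb of 2104 Mb (25.9%) lay more than 100 kb from a V2-IST region, and it held 19.2% of the short husk-only regions. Short husk-only regions occurred at 3.59 per Mb there and at 5.30 per Mb in the rest. Counted by the region's centre, the bin from 0 to 1 kb held 1 region, or 0.0293 per Mb. A region centred that close can overlap the V2-IST region, and overlapping regions are not in this class. The density was 11.7 per Mb at 1 to 5 kb from V2-IST acetylation and 6.92 per Mb at 5 to 20 kb. It was 3.78 per Mb at 20 to 50 kb and 4.39 per Mb at 50 to 100 kb. Past the limit it was 3.92 per Mb at 100 to 200 kb (exact Poisson 95% interval 3.72 to 4.13), 3.05 at 200 to 300 kb (2.74 to 3.39), 2.98 at 300 to 500 kb (2.56 to 3.46) and 2.37 beyond 500 kb (1.67 to 3.25). The density thus fell from the bin at 1 to 5 kb to that at 20 to 50 kb (3.62 to 3.95). It was higher at 50 to 100 kb (4.20 to 4.58) and lower again in the bins past 200 kb. The intervals treat regions as independent counts, which neighbouring regions need not be, and the differences between bins were not tested. The interval at 100 to 200 kb overlapped that at 20 to 50 kb.

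**Figure D2:**
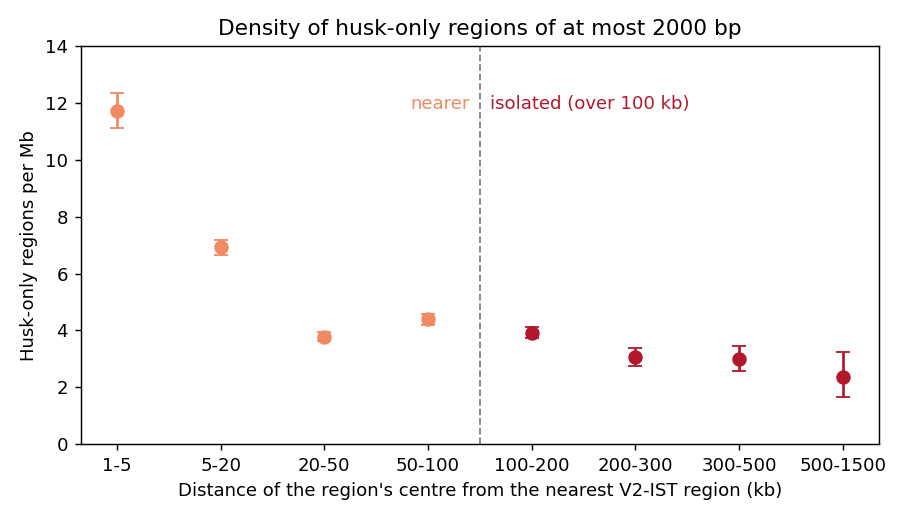
Husk-only regions of at most 2000 bp per Mb (y axis) by distance of their centre from the nearest V2-IST region (x axis, kb). Bars are exact Poisson 95% intervals. The bin from 0 to 1 kb, which held 1 region (0.0293 per Mb), is left out. The density is 11.7 per Mb in the first bin shown and 3.78 at 20 to 50 kb, rises to 4.39 at 50 to 100 kb and is 2.37 in the farthest bin.

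The isolated regions were spread over all chromosomes, most densely on chromosome 4. Chromosome 4 had 304 of them, 10.2% of its husk regions, against 5.49% on chromosome 1 (234 regions) and 8.54% on chromosome 10 (158 regions). Chromosome 4 also had the fewest V2-IST regions per Mb (7.15) and the largest share of sequence over 100 kb from one (30.2%). Per Mb of such distant sequence the chromosomes differed less, from 2.98 on chromosome 7 to 4.08 on chromosome 4. The median length was 834 bp on chromosome 3 and 966 bp on chromosome 1, with the other chromosomes in between.

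Along the chromosomes the middle segments held a larger share of the isolated regions than of other husk regions. Each chromosome was divided into 10 equal segments from its first to its last listed region. The middle 4 segments held 44.7% of the isolated regions, against 24.4% of the nearer husk-only regions, 27.4% of the shared regions and 27.3% of the V2-IST regions. By single segments the isolated regions ran from 6.53% in the last to 12.8% in the third, and the fourth held 10.2%. The outermost segments at the ends together held 15.3% of the isolated regions, against 33.6%, 31.8% and 31.8%. The rule draws regions to sequence with few V2-IST regions, which is commonest in the middle, so this share follows in part from the choice. Per Mb of sequence over 100 kb from V2-IST acetylation, the density of isolated regions was lowest in the fourth segment (2.23 per Mb) and highest in the last segment (6.18 per Mb). All densities per Mb count repeats that cannot be mapped uniquely as sequence, and mappability was not weighed here.

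**Figure D3:**
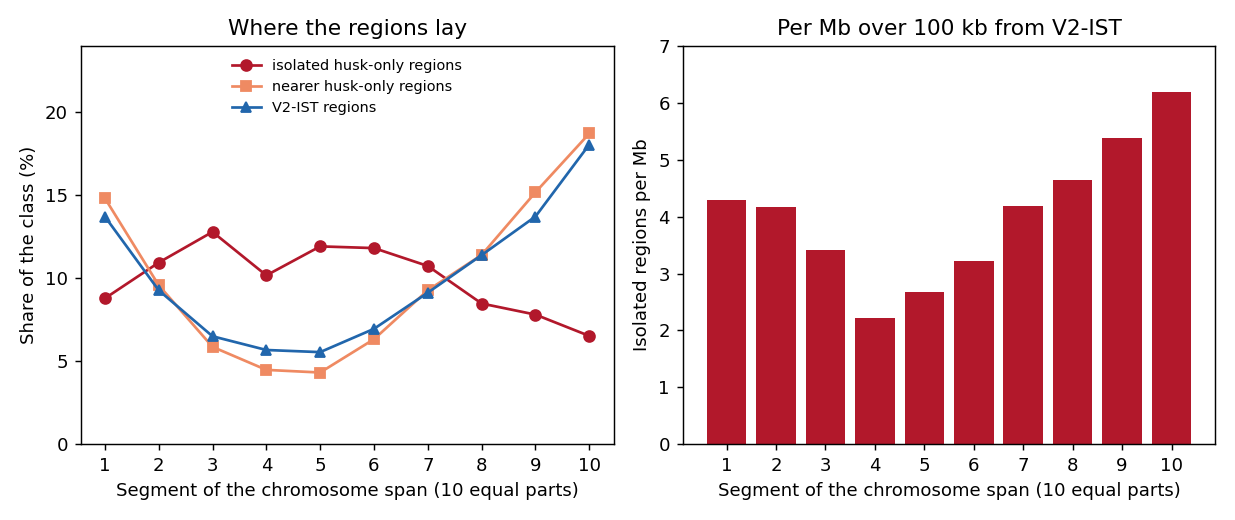
Left, share of isolated husk-only, nearer husk-only and V2-IST regions (y axis, percent of the class) in each of 10 equal segments of the chromosome span, all chromosomes together (x axis); right, isolated regions per Mb of sequence over 100 kb from V2-IST acetylation in the same segments. By share the isolated regions run from 6.53% in the last segment to 12.8% in the third, and per Mb of distant sequence they are sparsest in the fourth segment at 2.23 and densest in the last at 6.18.

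The isolated regions also had a larger median gap to other husk regions than the whole husk list. The rule did not measure that gap but bears on it, as set out below. Their median gap to the nearest other husk region of any kind was 63.5 kb (58.0 to 67.7), with quartiles of 18.0 and 118.0 kb and a range from 218 bp to 518.0 kb. The median was 9.51 kb for the nearer husk-only regions, 16.6 kb for shared regions of at most 2000 bp and 13.8 kb for all husk regions. It was 47.7 kb (39.1 to 59.1) for husk-only regions over 2000 bp that also lay over 100 kb from V2-IST acetylation. Of the isolated regions, 693 (35.6%, Wilson 95% interval 33.5 to 37.8) had no other husk region within 100 kb. Over all husk regions that share was 7.74% (2168 of 28004), and among shared regions of at most 2000 bp it was 8.67%. Every shared husk region overlaps a V2-IST region, so the rule also keeps shared husk regions at a distance of nearly 100 kb or more. The median gap and the share that stood alone thus follow in part from the rule. A nearer husk-only region lies at most 100 kb from a V2-IST region, and 94.5% of V2-IST regions are overlapped by a husk region. The gap from nearer husk-only regions to other husk regions is thus held low by the definition of their class.

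Of the 312 longer husk-only regions that lay over 100 kb from V2-IST acetylation, 29.5% (24.7 to 34.8) had no other husk region within 100 kb, against 35.6% (33.5 to 37.8) of the isolated regions, and the difference was not tested. By chromosome, the share of isolated regions that stood alone ran from 27.2% on chromosome 10 and 28.2% on chromosome 1 to 42.8% on chromosome 6 and 47.3% on chromosome 7. Standing alone went with little difference in length. The 693 lone regions had a median of 856 bp (815 to 894), and the 377 with another husk region within 10 kb had a median of 883 bp (821 to 953).

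**Figure D4:**
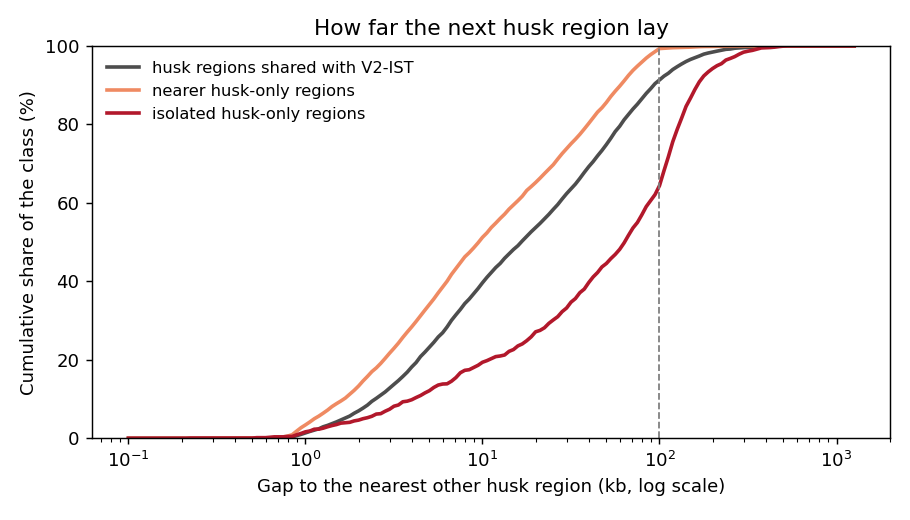
Cumulative share of each class (y axis, percent) by the gap to the nearest other husk region (x axis, kb, log scale), for isolated husk-only, nearer husk-only and shared husk regions of at most 2000 bp. The dashed line marks 100 kb, beyond which 35.6% of the isolated regions, 8.67% of the shared and 0.670% of the nearer husk-only regions had their next husk neighbour. The definitions of the classes set these shares in part.

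The nearest husk neighbour of an isolated region could be of any class. For 988 of the 1946 (50.8%) the nearest other husk region was isolated too, for 410 it was a shared region, for 334 a nearer husk-only region and for 214 a husk-only region over 2000 bp. Among the 1253 with a neighbour within 100 kb, 851 (67.9%) had an isolated one and 3 a shared one. The near absence of shared neighbours is set by the rule, and the large share of isolated ones follows in part from it.

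Some isolated regions lay close together. There were 755 pairs of isolated regions that followed each other on a chromosome with no other husk or V2-IST region in between. The median gap of a pair was 56.7 kb, with quartiles of 15.5 and 118.9 kb, and 98 pairs (13.0%) were under 5 kb apart. Among 2273 such pairs of nearer husk-only regions the median was 20.2 kb, and 24.6% were under 5 kb apart. Between V2-IST regions, isolated pairs need more than 200 kb of room, whereas nearer pairs can lie in less. This difference thus follows in part from the rule. Per kb of gap, pairs of isolated regions were commonest at 1 to 2 kb (23 pairs) and fell to 3.28 pairs per kb at 50 to 100 kb. In the closest pair, named after its values were seen, chr10:134290736-134292454 and chr10:134292961-134294504 lay 506 bp apart.

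A stretch is the sequence between consecutive V2-IST regions, and only stretches of more than 200 kb can hold an isolated region between them. There were 3222 such stretches among 17160 (18.8%), and 1148 of them (35.6%) held at least 1 isolated region, or 1152 with the chromosome ends. A further 835 (25.9%) held no husk region of any kind. The longest stretch, 2486 kb on chromosome 6, was one of these. In 25.9% of these long stretches, sequence without listed seedling acetylation was thus without listed husk acetylation as well. Repeats that cannot be mapped uniquely have no listed region in either tissue, and the mappability of these stretches was not weighed here.

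Longer stretches held an isolated region more often, but not in proportion to their room. The share of stretches with one was 15.9% at 200 to 300 kb, 41.9% at 300 to 400 kb, 58.3% at 400 to 600 kb, 77.4% at 600 to 1000 kb and 79.6% at 1000 to 2500 kb. Per Mb of sequence over 100 kb from the ends, the number of isolated regions fell over the same bins from 4.35 to 4.07, 3.63, 3.25 and 2.31. Of the 1152 stretches, 680 held 1 isolated region, 286 held 2 and 117 held 3. In 257 stretches a single isolated region was the only husk region, and in 629 stretches nearer husk-only regions were present too.

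The most populated stretch was a block of 1629 kb on chromosome 4 with 9 isolated regions and no other husk region, bounded by V2-IST regions at chr4:99025222-100654397. A stretch of 1160 kb on chromosome 3 also held 9, beside 2 husk-only regions over 2000 bp long. On chromosome 4 the first 2 regions, of 1616 and 713 bp, lay 5.13 kb apart near the low end. The next, of 845 bp, followed after 94.0 kb. Then came one of 436 bp, and after 77.1 kb a pair of 878 and 921 bp that lay 24.2 kb apart. The last 3 stood apart, at 576, 849 and 1045 bp long, each more than 200 kb from any other husk region. Their median length was 849 bp, close to the median of all isolated regions.

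The stretch around tb1 was shorter but densely filled. It spanned 466.8 kb of chromosome 1 and held 8 husk-only regions. Of these, 6 were isolated and 2 lay 70.5 and 94.9 kb from a listed V2-IST region. Only 18 of the 1152 stretches with an isolated region (1.56%) held 6 or more. The 6 were 1244, 1374, 1344, 1176, 1311 and 1620 bp long in chromosome order, with a median of 1328 bp, and all were above the median of 868 bp. This stretch was chosen because the study names the locus.

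The region at the tb1 enhancer, for which the primers above were designed, was the third of the 6. Its 1344 bp exceeded the length of 79.6% of all isolated regions. It lay 223.8 kb from the V2-IST region on the low side and 241.6 kb from the one on the high side, and 76.8% of isolated regions had a smaller gap. The fifth of the 6, chr1:270553606-270554916, lay at the tb1 gene itself, 69.0 kb from the enhancer region. The other isolated regions lay 21.1 kb before the enhancer region, 27.4 kb after it, 8.87 kb beyond the gene region and, the outermost, 36.6 kb from its nearest husk neighbour. The bounding V2-IST regions, 1197 and 617 bp long, were each overlapped by a husk region, of 1425 and 829 bp. Husk regions were thus listed at the enhancer, at the gene and at 6 other places across a stretch where V2-IST regions were listed only at the borders. This is a statement on the lists and not on a husk-specific enhancer. By ChIP-qPCR with these primers, the study found the enhancer acetylated in both tissues. It reported the same for its pooled ChIP-seq data and ascribed the call of the enhancer in husk only to its stringent criteria.

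**Figure D5:**
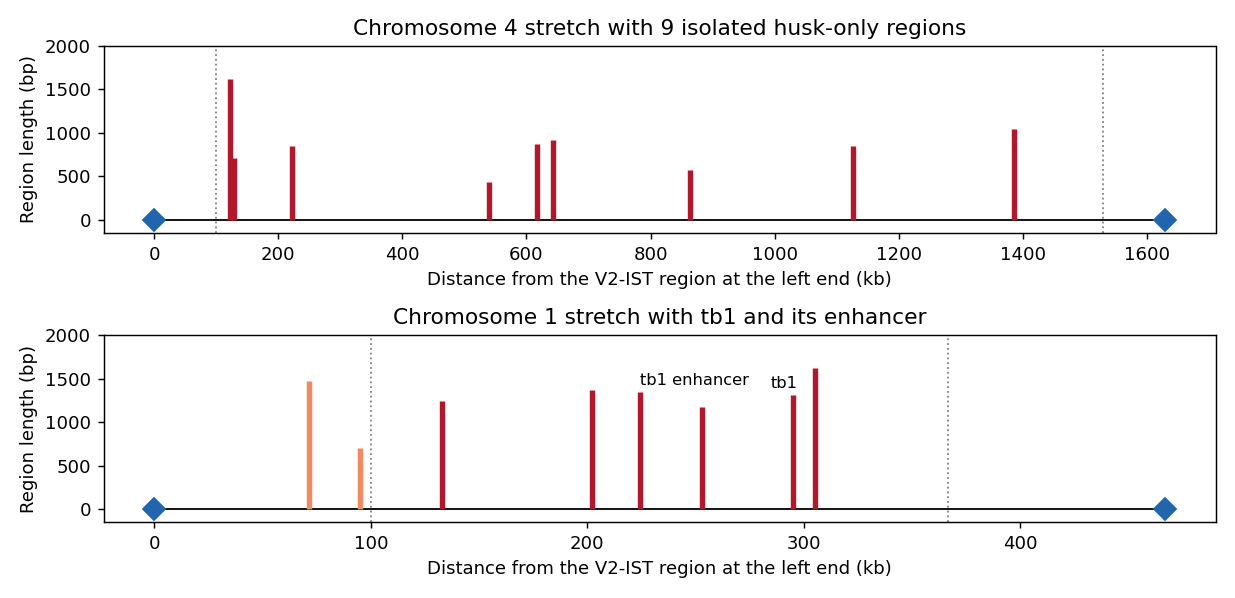
Husk-only regions in a stretch of chromosome 4 (top) and in the stretch with tb1 on chromosome 1 (bottom), drawn at their distance from the V2-IST region at the left end (x axis, kb) with their length as bar height (y axis, bp). Red bars are isolated regions, orange bars nearer ones, blue diamonds the bounding V2-IST regions, and dotted lines stand 100 kb inside them; the top stretch holds 9 isolated regions over 1629 kb and the bottom one 6 over 466.8 kb.

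The surroundings of the isolated regions were thin in both lists. Within 500 kb on either side, an isolated region had a median of 10 other husk and 5 V2-IST regions, against 16 and 10 around nearer husk-only regions and 15 and 10 around shared regions of at most 2000 bp. The low V2-IST number is set by the rule, and so in part is the low husk number, since 94.5% of V2-IST regions are overlapped by a husk region. The 1381 V2-IST regions that were nearest to an isolated region were like others of their list. Their median length was 600 bp against 603 bp for all, and 94.1% were overlapped by a husk region against 94.5% of the whole list.

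The opposite arrangement was rare. Under the same rule with the tissues exchanged, 83 V2-IST regions of at most 2000 bp lay more than 100 kb from any husk region. These made up 0.483% of all V2-IST regions and 8.77% of the 946 without husk overlap, had a median length of 628 bp and reached at most 389.9 kb from a husk region. The 1946 isolated husk regions were 23.4 times as many, while the whole husk list was 1.63 times as long as the V2-IST list. Regions without overlap were already unequal in number, with 11952 in husk against 946 in V2-IST. Isolated regions were 16.3% of the former, and the reverse share was the 8.77% given above. The part of the list sizes and of the number of replicates in the ratio of 23.4 was not tested.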

How the data were processed

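Formaldehyde-fixed chromatin of 3 husk and 2 V2-IST replicates was precipitated with antibody ab10812 against H3K9ac and sequenced beside input. The authors aligned reads to AGPv4 (B73 RefGen_v4) with BWA, used SAMtools to drop reads whose mapping quality was under 20, ran MACS2 on each replicate with input as control (q-value cutoff 0.001), and merged peaks overlapping by at least 70% between replicates, the third husk replicate being compared with the already merged peaks. Versions are not given in the sources used here. The deposited values are region starts and ends in bp on chromosomes 1 to 10, shown here 1-based. Filtering by mapping quality leaves repeats that cannot be mapped uniquely without regions, which lengthens gaps and can lower densities per Mb.

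Gaps were computed edge to edge in Python 3.11.15 with numpy 2.4.6 and scipy 1.17.1, and an overlap was 1 bp or more. All 28004 gaps equalled those of bedtools 2.31.1, and the functions were tested on simulated data. Medians have order-statistic, shares Wilson and densities exact Poisson 95% intervals. No test between groups was run, since each list pools its replicates. Named regions are the 5 with the largest gaps, the 5 longest and 5 shortest, the most remote of each chromosome, those at the limits of the rule, those of the stretch with most isolated regions (the longest where tied) and those of the tb1 stretch; the stretch on chromosome 3 is mentioned as the tie. The rule's members, classes and lists were chosen with earlier results of these data known. Alternatives covered the gap, the length limits, joining of close regions and the size of the husk list. Figures were drawn with matplotlib 3.10.9. Positions on the same assembly were taken from the study for tb1 and its enhancer only. The reference gene table belongs to a later assembly and was not used. Signal tracks, DNase-seq, DNA methylation and RNA-seq were not analysed here.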

Additional observations from a re-analysis of the deposited data

How the results depend on the processing

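The number of isolated regions depended on the limits and on the lists. With a minimum gap of 50 kb there were 4016 in 2372 stretches, with medians of 97.6 kb to V2-IST and 53.8 kb to the next husk region and 17.9% alone within 100 kb. With 200 kb there were 557 in 336 stretches, with 270.4 kb, 72.3 kb and 39.5%. A length limit of 1000 bp left 1157 regions with a median length of 667 bp, and no limit gave a median length of 974 bp. A minimum length of 500 bp in both lists, which removed 5476 V2-IST regions (31.9%), gave 4104 isolated regions in 1840 stretches, with medians of 842 bp, 169.8 kb to V2-IST and 46.4 kb to husk, and 26.5% alone. In an alternative chosen after seeing the data, the husk list was cut to its 17170 longest regions (877 bp or more), as many as in V2-IST; 958 isolated regions in 718 stretches were left, with medians of 1274.5 bp and 107.0 kb to the next husk region, and 54.3% alone. The other 18 of 42 recomputed values moved by less than 1.5 times (counts) or stayed within the 95% interval, and joining regions closer than 200 bp changed none of the 6 results. No replicate could be left out. No paired analysis was possible because each list combines its replicates. The lists give no depth and library read totals were not used here, so the effect of depth was not weighed.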
